A study of Mus musculus with 86 samples.

Results

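Zfp839 (ENSMUSG00000021271, chr12:110850253-110869996 of GRCm38, plus strand) is a mouse gene named for a zinc finger protein. It is 1 of 53664 genes quantified in the CAD and N2A libraries of this series, and it was picked by name because its rise in neurites after loss of TDP-43 was among the largest there. The values that picked it are the knockout comparisons in CAD and N2A cells, so these are given as a description and without a test. The comparison of mutant and wild-type TDP-43 transgenes played no part in the choice and was tested. RNA from soma and neurites was sequenced in 36 libraries of 12 groups, with 3 libraries per group, among 86 samples in the series. Neurites were separated from soma by growing cells on a porous membrane that lets only neurites through.

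CAD and N2A are mouse neuronal cell lines, differentiated here by withdrawal of serum. In both, a single copy of an HA-tagged TDP-43 transgene under a doxycycline-off promoter (genotype TetOff TDP-43) replaced the endogenous alleles, which had been inactivated with CRISPR. Cells without doxycycline are called wild-type and still expressed TDP-43 from the transgene only. Cells given doxycycline for 48 h are called knockout. The labels give 2 μg/mL, and the methods of the study give a lower dose for this step. Knockout lines were screened as clones, and doxycycline was given to the knockout groups only, so its own effect cannot be told apart from loss of TDP-43. The third experiment used CAD cells that kept their endogenous TDP-43 gene and carried a single copy of a doxycycline-inducible, HA-tagged transgene with a synthetic 3′ UTR, coding for either wild-type or Q331K TDP-43 (labelled as overexpression). Both of its groups were induced with doxycycline, per the methods. The paper reports that induction lowered endogenous TDP-43 and left its total about the same as in uninduced cells. Most TDP-43 in these cells then came from the transgene, according to the paper. Q331K is a substitution found in amyotrophic lateral sclerosis (ALS).

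TDP-43 is a mostly nuclear RNA-binding protein that controls splicing and stability of RNAs and prefers GU-rich sequence. It leaves the nucleus and aggregates in neurons of most people with ALS. Many RNAs are carried into neurites or kept in the soma, often through elements in their 3′ UTRs, and the localization ratio (LR), the log2 of the neurite level over the soma level, measures this balance.

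The 3′ UTR of Zfp839 holds long runs of alternating G and U, and the sites are shown here because they are the sequence that TDP-43 is known to prefer. Sequences are from the GENCODE vM21 transcript Zfp839-201, 5′ to 3′, at most 30 bases each, with capitals for every base that lies in a match to 1 of 3 motifs. These are GUGUG, then the shifted form UGUGU, and GUAUG, in which an A interrupts the run, and matches may overlap.
Stop codon (first 3 bases) and start of the longest GU run, chr12:110869076-110869105: ugaccaggagucagggGUGUGUGUGUGUGU
Second GU-rich site, chr12:110869227-110869256: uaUGUGUGUGUAUGUGUGUGUGUGUGagag
The third GU-rich site, chr12:110869282-110869307: uaaUGUGUGUGUGUGUGUGagggagg
GUAUG pair, chr12:110869365-110869391: ugcGUGUGUAUGaaugaguGUAUGugg
Longest GU run of the coding sequence, in exon 2, chr12:110855123-110855146: agcaaggGUGUGUGUGUcuccagc
The longest run has 55 bases without interruption (chr12:110869092-110869146) and begins 14 bases after the stop codon, all in the last exon. Of the sites shown, the second is a GU run that a single GUAUG interrupts, and the third is uninterrupted. Matches that start at bases 141 to 143 of the 3′ UTR, between the longest run and the second site, are not shown.

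The 918 bases of this 3′ UTR hold 90 overlapping matches to the 3 motifs on the transcript strand, which is 98.0 per kb, and 14.4% of its bases lie in a match. The matches are 42 GUGUG, 44 UGUGU and 4 GUAUG, and 82 of the 90 start within the first 250 bases. The coding sequence of the same transcript holds 7.6 matches per kb and the 5′ UTR holds 0 in 39 bases. Across 20661 genes with a 3′ UTR of at least 50 bases, taking the longest annotated 3′ UTR of each, the median was 4.27 matches per kb and 81.8% of genes had at least 1 match. A density at or above that of Zfp839 was found in 19 genes (0.092%), Zfp839 included, and a GU run of at least 55 bases in 50 genes (0.242%). The plot of motif positions shows the matches crowded toward the stop codon. A match is a string of letters, not a measured binding site.

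**Figure D1:**
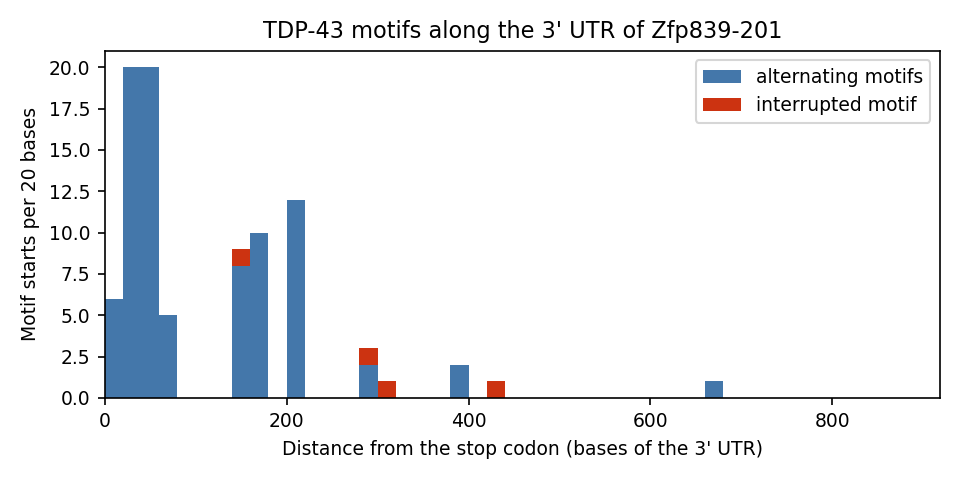
Starts of TDP-43 motifs per 20 bases (y axis) against distance from the stop codon in bases (x axis) in the 3′ UTR of Zfp839-201, with the alternating motifs in blue and the interrupted motif in red. Of 90 matches, 82 start in the first 250 of 918 bases.

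Libraries of the knockout experiments held 22726534 to 32895542 estimated counts and those of the transgene experiment 9783050 to 15870647. Tardbp, the gene of TDP-43, whose reads include those of the transgene, stood in knockout cells at 15.4% (CAD soma), 30.8% (CAD neurites), 28.1% (N2A soma) and 42.2% (N2A neurites) of the mean TPM of wild-type cells, and no knockout library overlapped a wild-type library of its compartment. In Q331K cells it was at 101% in soma and 103% in neurites of the level in cells with the wild-type transgene. Of 8 neuronal markers, 6 were at 1 TPM or more in each of the 12 groups, while Nefl was under 0.1 TPM in all of them. Dcx was under 0.1 TPM in all neurite groups and in both soma groups of the transgene experiment. Markers of glial and other cells summed to 2.05 to 20.4 TPM, against 388 to 1820 TPM for the neuronal markers. The median LR of ribosomal protein genes, which are known as neurite-enriched, was 1.57, 1.39 and 1.79 in the control cells of the CAD, N2A and transgene experiments.

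In CAD cells, Zfp839 was scarce in wild-type neurites and far higher in knockout neurites, while its level in soma moved little. Estimated counts in neurites were 44, 39 and 43 in wild-type libraries and 1889, 2398 and 2018 in knockout libraries. The exact Poisson interval (95%) of the lowest of these was 27.7 to 53.3 counts, and such intervals cover counting error only. In TPM, which is per length, neurites held 0.257 ± 0.0264 (SD, n = 3) in wild-type and 14.4 ± 1.94 (n = 3) in knockout cells, a ratio of 56.1. Every knockout neurite library lay above every wild-type library, and the gene moved from above 37.8% to 39.8% of the genes detected in wild-type neurites to above 84.2% to 87.4% in knockout neurites. In soma, the 3 wild-type libraries were at 1.35, 1.70 and 1.53 TPM and the knockout libraries at 1.60, 1.49 and 1.83 TPM. These overlapped in TPM, with a ratio of 1.07. On the scale of TMM-scaled CPM they did not, at 2.52 to 3.50 CPM in wild-type and 3.71 to 4.31 CPM in knockout soma, a ratio of 1.30. The neuronal markers summed to 497 to 827 TPM in wild-type and 705 to 764 TPM in knockout neurites, and the groups overlapped. Since these are bulk fractions, more neurites with the RNA and more RNA per neurite cannot be told apart. The paper reports that neurites of knockout cells were slightly shorter.

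N2A cells, which started from a higher level, showed the same directions and a smaller rise in neurites. Neurite libraries held 104, 96 and 87 estimated counts in wild-type and 741, 858 and 542 in knockout cells. This was 0.637 ± 0.110 TPM (SD, n = 3) against 5.57 ± 1.68 TPM (n = 3), a ratio of 8.74, and the groups did not overlap. In soma, wild-type libraries were at 3.93, 2.86 and 2.66 TPM and knockout libraries at 3.78, 2.89 and 3.21 TPM, which overlapped at a ratio of 1.05. Neuronal markers summed to 388 to 707 TPM in wild-type and 428 to 735 TPM in knockout neurites of N2A cells. Of 6 RNAs listed as nuclear (Malat1, Neat1, Meg3, Kcnq1ot1, Miat and Snhg11), 5 passed the filter. Their LR changes ran from 0.98 to 1.83 in N2A cells, with a median of 1.11. edgeR and DESeq2 called 0 of these 5 at an FDR of 0.01, and 2 had an unadjusted p under 0.05 in edgeR. Over all genes in N2A cells, 5580 of 17912 were at that level. In CAD cells the median of the nuclear RNAs was 0.51 and 0 had an unadjusted p under 0.05 in edgeR, beside 1824 of 17343 genes. In N2A cells the median change of these RNAs was 0.33 in neurites and -0.93 in soma, beside 2.95 and 0.15 for Zfp839. The part of these RNAs in the N2A value of Zfp839 was not tested.

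**Figure D2:**
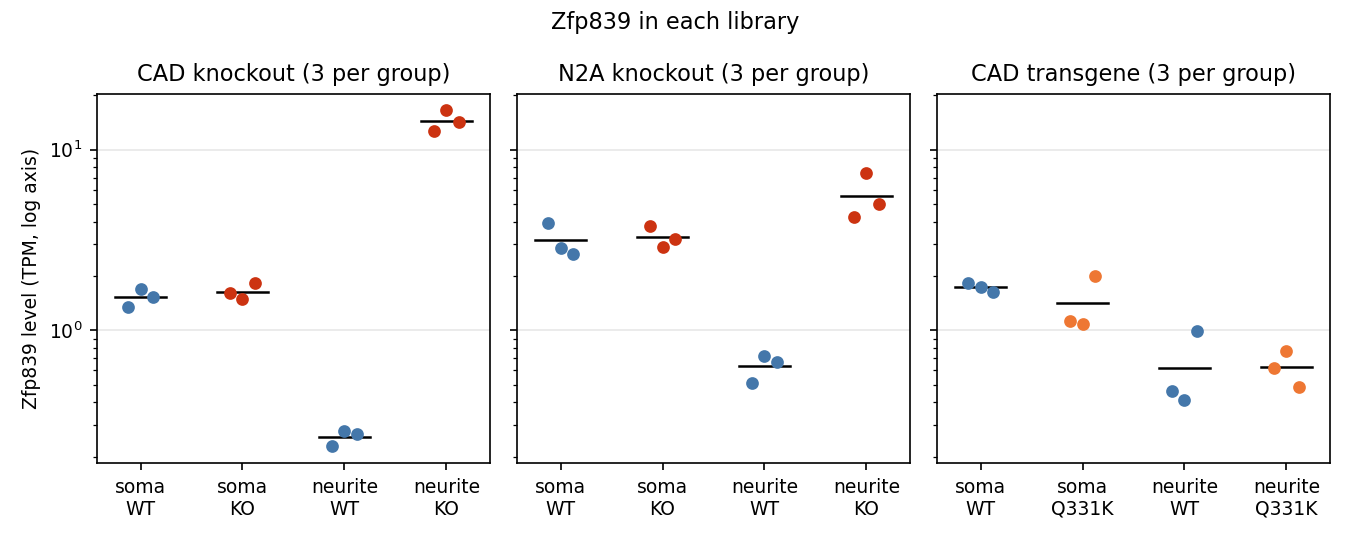
Zfp839 level in TPM (log axis) in each of the 36 libraries, by compartment and condition, with 3 points per group and a line at the mean. Knockout neurites stand apart at 12.6 to 16.5 TPM in CAD cells and 4.24 to 7.45 TPM in N2A cells, while the transgene groups of each compartment overlap.

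Set side by side by replicate number, which the labels do not tie to a culture, and taken from CPM, the LR of Zfp839 was -0.84, -0.81 and -0.67 in wild-type and 4.16, 4.64 and 4.48 in knockout CAD cells. The same LRs were -0.98, -0.79 and -0.68 in wild-type and 1.97, 2.14 and 1.69 in knockout N2A cells. Whatever the pairing, every wild-type neurite library lay below every wild-type soma library of its line in CPM, and every knockout neurite library lay above every knockout soma library. In edgeR's model, the LR change (knockout minus wild type, log2) was 5.23 (standard error 0.190) in CAD and 2.81 (standard error 0.295) in N2A cells. It was made up of a change of 5.61 (standard error 0.133) in neurites and 0.38 (standard error 0.130) in soma in CAD cells. In N2A cells these were 2.95 (standard error 0.213) and 0.15 (standard error 0.206). For reference, 39 of 17343 genes (0.225%) were called higher and 36 (0.208%) lower at an FDR of 0.01 in CAD cells. In N2A cells, 16 of 17912 genes (0.0893%) were called higher and 2 (0.0112%) lower. By the size of the LR change over all genes tested, Zfp839 was at rank 20 in CAD and at rank 121 in N2A cells. This rank takes no account of the standard error. In N2A cells the genes directly above Zfp839 were Gm42497, Fth-ps2 and Gm42869, with standard errors of 1.89, 0.907 and 1.4. In CAD cells it stood between Fam160b2 at 5.56 (standard error 0.153) and Wasf3 at 4.92 (standard error 0.132), with Gm24722 at 5.34 (standard error 1.57) in between.

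The size of the LR depended on the scaling of neurite against soma libraries, while its sign in these cells did not change with it. From TPM, the LR was -2.57 ± 0.05 (SD, n = 3) in wild-type and 3.13 ± 0.28 (n = 3) in knockout CAD cells, and -2.30 ± 0.55 and 0.72 ± 0.61 (n = 3 each) in N2A cells. With library totals in place of TMM, the median LR of all genes shifted by -0.67 in wild-type and -0.56 in knockout CAD cells, and by -0.34 and -0.30 in N2A cells, and the median LR change by 0.12 and 0.04. The LR change of Zfp839 was then 5.35 in CAD and 2.84 in N2A cells. The split of CAD calls moved to 51 higher and 18 lower.

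**Figure D3:**
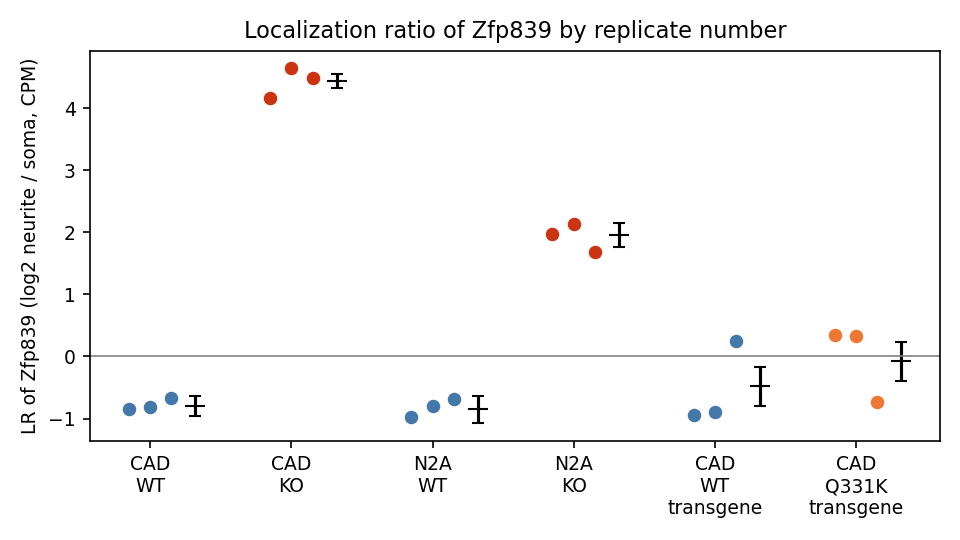
LR of Zfp839 (log2 neurite over soma, from CPM) for each replicate number, 3 points per condition, with the fitted LR and its standard error beside them in black. Knockout points lie between 1.69 and 4.64 and wild-type points of both lines between -0.98 and -0.67, and the points of both transgenes lie on both sides of 0.

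Cells with the Q331K transgene showed no detectable difference in Zfp839 from cells with the wild-type transgene. Neurite libraries held 19, 18 and 39 estimated counts with the wild-type transgene and 30, 29 and 24 with Q331K. This was 0.621 ± 0.322 TPM (SD, n = 3) and 0.623 ± 0.138 TPM (n = 3), and the groups overlapped. The count of 18 had an exact Poisson interval (95%) of 10.7 to 28.4. In soma, the libraries were at 1.82, 1.74 and 1.64 TPM with the wild-type transgene and at 1.12, 1.09 and 2.01 TPM with Q331K, and these overlapped too. In edgeR's quasi-likelihood test, the LR change (Q331K minus wild-type transgene, log2) was 0.40 (standard error 0.449, 95% interval -0.55 to 1.35, Benjamini-Hochberg adjusted p = 0.999). The change in neurites was 0.23 (interval -0.47 to 0.93, adjusted p = 0.869 in the same edgeR test) and that in soma -0.17 (interval -0.81 to 0.47, edgeR adjusted p = 0.959). For all genes, edgeR called 0 of 13940 (0.0%) higher and 0 (0.0%) lower for this LR change, with 605 genes at an unadjusted p under 0.05. DESeq2 also called 0, with 514 at that level. The paper, comparing groups of RNAs, reports that those gaining neurite enrichment with Q331K were in general those gaining it in knockout cells. It describes the effect as more modest. Replicate number 3 decided the size of the estimate for Zfp839. Without it the LR change was 1.27 (standard error 0.483, edgeR adjusted p = 0.982), and without number 1 or 2 it was -0.00019 or 0.03.

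On the CPM scale, the fitted LR of Zfp839 in the transgene cells was -0.48 (standard error 0.317, edgeR adjusted p = 0.249) with the wild-type transgene and -0.08 (standard error 0.318, edgeR adjusted p = 0.863) with Q331K. Neither passed the FDR of 0.01. By replicate number it was -0.95, -0.90 and 0.25 with the wild-type transgene and 0.34, 0.33 and -0.73 with Q331K. In TPM, neurites lay below soma without overlap for both transgenes, at ratios of 0.358 and 0.442. An exact two-sided permutation test on TPM gave p = 0.1 for each, the smallest that 3 against 3 allows. In CPM, neurites and soma overlapped for both transgenes. Lower TPM in neurites was not particular to Zfp839. The median over 329 other genes with a Zfp symbol was 5.35 TPM in neurites and 11.5 in soma with the wild-type transgene. With Q331K it was 5.15 and 11.0 TPM. Library totals in place of TMM gave LRs of Zfp839 of -0.99 and -0.63. Without replicate number 3, the LR with the wild-type transgene was -0.95 (edgeR adjusted p = 0.0439), and without number 1 it was -0.24 (edgeR adjusted p = 0.723).

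Ordered by mean TPM, the 12 groups fell into 6 tiers without overlap between tiers. The 3 experiments were quantified separately and were not tested against each other. CAD knockout neurites were highest and did not overlap N2A knockout neurites, the next group at 5.57 TPM. N2A knockout soma and N2A wild-type soma followed at 3.29 ± 0.454 and 3.15 ± 0.685 TPM (SD, n = 3 each) and did not differ beyond their spread. The 4 soma groups of CAD cells came next at means of 1.41 to 1.73 TPM and overlapped. N2A wild-type neurites and both groups of transgene neurites came after them at means of 0.621 to 0.637 TPM, again with overlap. CAD wild-type neurites were lowest, and their highest library, at 0.278 TPM, lay below the lowest of the transgene neurites, at 0.409 TPM.

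GENCODE vM21 lists 3 transcripts of Zfp839. Zfp839-201 has 8 exons and the 3′ UTR described above. Zfp839-203 has 7 exons, skips exon 3 of Zfp839-201 (chr12:110860796-110861023, 228 bases, a multiple of 3) and is annotated only as far as the coding part of the last exon, so it has no 3′ UTR in the annotation. Zfp839-202 is a short model of 2 exons and was at 0 in all 36 libraries.

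Both quantified transcripts were higher in every knockout neurite library than in any wild-type neurite library of their line, by similar factors. Zfp839-201 was at 0.163 ± 0.0508 TPM in wild-type and 9.35 ± 1.29 TPM in knockout neurites of CAD cells (SD, n = 3 each), a ratio of 57.4. Zfp839-203 was at 0.0945 ± 0.041 and 5.10 ± 0.730 TPM, a ratio of 54.0. In N2A neurites the ratios were 9.31 and 8.18. Zfp839-203, whose model ends inside the last exon before the stop codon, was higher along with Zfp839-201. Whether the RNA counted as Zfp839-203 carried the 3′ UTR was not tested. Reads from shared exons are divided between these transcripts by estimation. Zfp839-203 took 23.4%, 23.8% and 26.2% of the gene's estimated counts in knockout CAD neurites, and 34.6%, 33.4% and 11.7% in wild-type CAD neurites, where 5.1 to 15.2 estimated counts per library stood behind it. In N2A neurites its share was 37.7% ± 5.61 (SD, n = 3) in wild-type and 34.6% ± 7.18 (n = 3) in knockout cells. The shares of wild-type and knockout cells overlapped in both lines. In CAD soma the shares of Zfp839-203 were 19.2% to 47.4% in wild-type and 18.2% to 25.5% in knockout cells. In N2A soma they were 21.2% to 26.5% and 17.6% to 44.0%.

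In CAD soma the levels of the transcripts differed in direction. Zfp839-201 was at 0.613 to 0.968 TPM in wild-type and 1.08 to 1.17 TPM in knockout libraries, a ratio of 1.39 without overlap. Zfp839-203 was at 0.387 to 0.916 and 0.413 to 0.667 TPM, a ratio of 0.716 with overlap. In N2A soma the ratios were 0.99 and 1.17.

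The Q331K comparison of transcripts rested on few counts. Zfp839-203 was at 0 in 2 of 3 neurite libraries with Q331K and in 1 of 3 with the wild-type transgene, and its mean share was 3.83% ± 6.64 against 18.3% ± 16.3 (SD, n = 3 each). An exact two-sided permutation test of the share gave p = 0.4 in neurites and p = 0.4 in soma. In edgeR's test over 34743 transcripts, the LR change was 0.55 (standard error 0.598, adjusted p = 1.0) for Zfp839-201 and -1.31 (standard error 2.28, adjusted p = 1.0) for Zfp839-203.

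**Figure D4:**
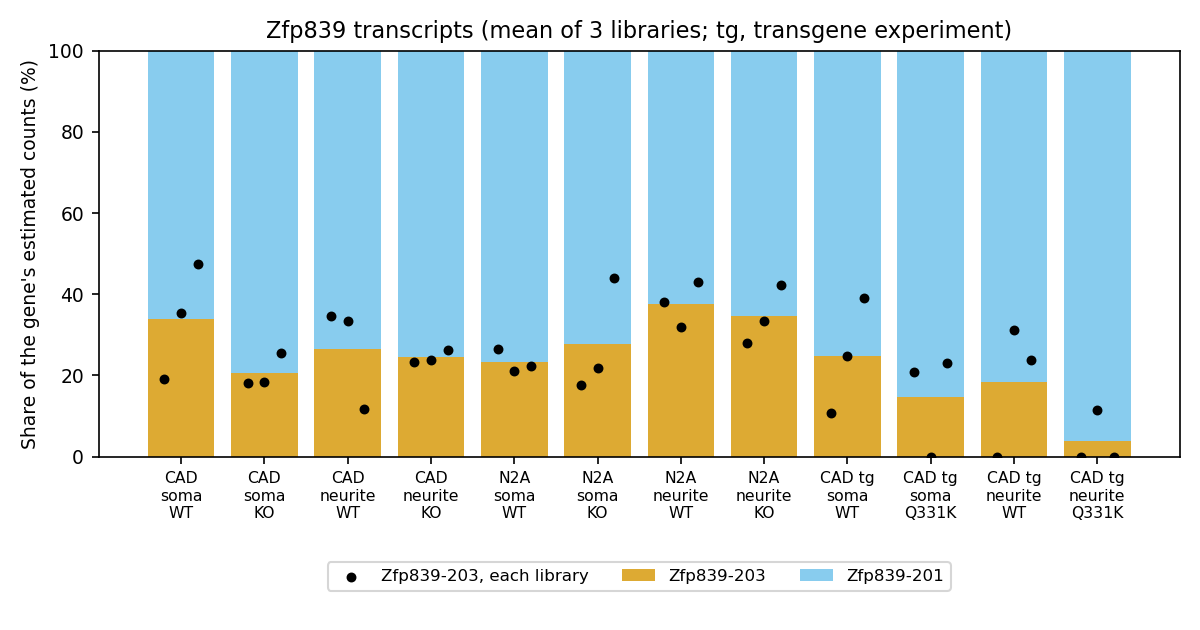
Share of the estimated counts of Zfp839 (percent) given to Zfp839-201 (blue) and Zfp839-203 (yellow) in each of the 12 groups, as the mean of 3 libraries, with the share of Zfp839-203 in each library as black points. Zfp839-203 takes 23.4% to 26.2% in knockout CAD neurites and is at 0 in 4 libraries of the transgene experiment.

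The other genes that carry a Zfp symbol, a large and mixed group named for the zinc finger fold, many of which bind DNA, were taken as the family of Zfp839. Of 373 such genes, 347 were tested in CAD cells and 343 in N2A cells. In edgeR none of them was called for LR change in either line, with 30 in CAD and 63 in N2A at an unadjusted p under 0.05. Over all genes, 1824 of 17343 in CAD and 5580 of 17912 in N2A cells were at that level. DESeq2 called 1 higher and 3 lower in CAD cells, and 3 higher and 9 lower in N2A cells. Over all genes it called 79 higher and 145 lower in CAD, and 365 higher and 1288 lower in N2A cells. The Zfp genes' median LR change was 0.06 in CAD and -0.07 in N2A cells, beside -0.01 over all genes in both. The estimate for Zfp969 in CAD cells, 7.52, exceeded that of Zfp839 but had a standard error of 12900, and the next, for Zfp534, was 2.09 (standard error 1.03, edgeR adjusted p = 0.505). In N2A cells the highest was Zfp853, which is described with its 3′ UTR. By level, Zfp839 was at rank 323 among the tested Zfp genes in wild-type CAD neurites and at rank 14 in knockout CAD neurites. In N2A neurites these ranks were 317 and 141. Zfp706 was the highest of the other Zfp genes in CAD neurites, at 53.3 TPM in wild-type and 54.4 TPM in knockout cells. In the Q331K comparison, 0 of 329 Zfp genes were called by edgeR or DESeq2, with 8 at an unadjusted p under 0.05 in edgeR. Over all genes, 0 of 13940 were called by either, with 605 at that level in edgeR.

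Among Zfp genes with a 3′ UTR in the annotation, 352 apart from Zfp839, the median density was 5.11 motif matches per kb and none reached that of Zfp839. The highest was Zfp853, with 71.7 per kb and a GU run of 49 bases. Its LR change was 3.25 (standard error 0.903, edgeR adjusted p = 0.0425) in N2A and 0.46 (standard error 0.894, edgeR adjusted p = 0.908) in CAD cells, and its mean level was at most 0.302 TPM in any group. Zfp473 has a GU run as long as that of Zfp839, 55 bases, in a 3′ UTR of 6436 bases. Its LR change was 0.25 (standard error 0.402, edgeR adjusted p = 0.892) in CAD and 0.16 (standard error 0.336, edgeR adjusted p = 0.769) in N2A cells.

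Other genes with a GU run of at least 55 bases in the 3′ UTR had LR changes near 0 at the median. Of 40 such genes tested in CAD cells, 1 was called higher (Rad54l2, at 1.08) and 0 lower in edgeR, where 0.225% of all genes were called higher. Their median LR change was 0.02, with a range of -0.86 to 1.13. Of 41 in N2A cells, 0 were called, with a median of -0.07 and a range of -0.54 to 1.74. The medians over all genes were -0.01 in both lines. For Q331K the median over 35 such genes was 0.01. Zfp839, at 5.23 and 2.81, lay outside both ranges, as the plot of these genes shows. The list was made after the sequence of Zfp839 had been seen, and no test was made on it.

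**Figure D5:**
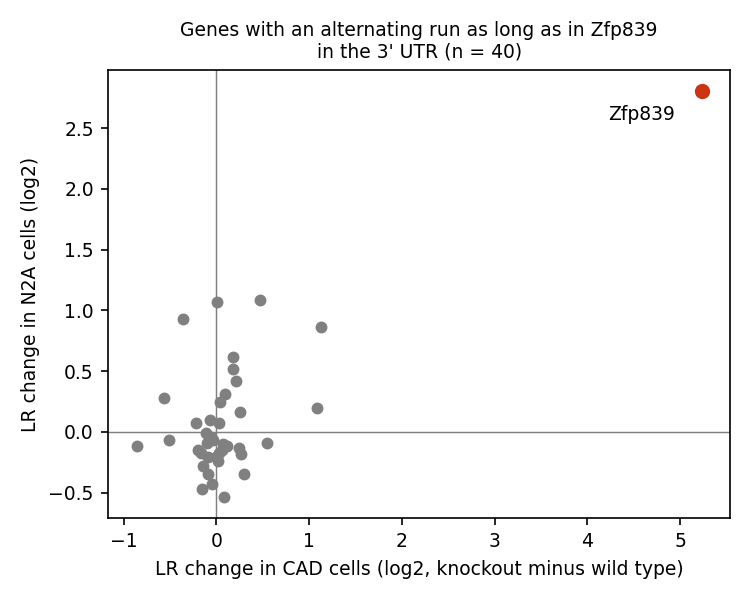
LR change (log2, knockout minus wild type) in CAD cells (x axis) and N2A cells (y axis) for the 40 genes tested in both lines whose 3′ UTR holds an alternating GU run at least as long as that of Zfp839, with Zfp839 in red. The other 39 genes lie between -0.86 and 1.13 in CAD cells and between -0.54 and 1.09 in N2A cells.

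The list by motif density had higher medians. Of the 18 other genes with at least the motif density of Zfp839, 12 were tested in CAD cells, and Fam160b2, with 100.1 matches per kb, had an LR change of 5.56. The other 11, among them Lrpprc, Nup93 and Igsf9, were between -0.27 and 1.0, with a median of 0.29. In N2A cells, Fam160b2 was at 1.10 and the other 12 between -0.43 and 1.74, with a median of 0.20. The medians over all genes were again -0.01, and no test was made on this list either. The genes called higher in CAD and N2A cells had median densities of 14.3 and 14 per kb.

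Zfp839 was set beside 8 genes called higher in both knockouts in an earlier analysis of these data, which are no independent evidence of direction: Diras1, Fam160b2, Kank2, Ksr2, Lrrc47, Spock2, Ssc5d and Wasf3. Their LR changes were 1.38 to 5.95 in CAD cells (median 4.15) and 1.04 to 4.61 in N2A cells (median 1.18). Over all genes, edgeR called 2041 of 17343 higher in CAD neurites and 1161 of 17912 in N2A neurites. Of the 8, which were picked as higher, it called 7 higher in neurites of each line. The exception was Ssc5d, at -0.11 (CAD) and 0.13 (N2A) in neurites and at -1.49 and -0.96 in soma. In CAD soma, 5 were called higher, among them Lrrc47 at 1.62 and Spock2 at 1.10, and 2 lower. Over all 17343 genes, 1946 were called higher and 2007 lower there. Diras1, a small GTPase of the Ras superfamily, went from 3.29 ± 0.658 to 272 ± 39.4 TPM in CAD neurites (SD, n = 3 each). Ksr2, a scaffold of the Ras-MAPK pathway, went from 0.636 ± 0.125 to 13.2 ± 2.50 TPM there. The N2A change of Ksr2, 4.61 (standard error 0.318), was close to its CAD change of 4.81 (standard error 0.178), while Zfp839 stood at 2.81 against 5.23 and Fam160b2 at 1.10 against 5.56. These differences between lines were not tested. Wasf3, which promotes actin assembly, had LR changes of 4.92 and 3.53. In the Q331K comparison edgeR and DESeq2 called 0 of 13940 genes for LR change, and 605 had an unadjusted p under 0.05 in edgeR. Of the 8 genes, 0 were called and 1 was at that level in edgeR, and their median LR change was 0.05. Their motif densities ran from 3.7 per kb (Kank2) to 100.1 per kb, so the high density of Zfp839 was shared with Fam160b2 but not with Diras1 (25.1), Ksr2 (5.5) or Wasf3 (5.3).

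Zfp839 was not among the 16 genes whose 3′ UTR fragments were tiled in the reporter library of the series, and 0 of 11955 oligo names came from it. All 8 genes set beside it were tiled.

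Over 36 libraries, after centring each experiment, the log2 CPM of Zfp839 was most like that of Wasf3 (Pearson's r = 0.953), Peli3 (0.947), Kcnj12 (0.937), Fam219a (0.932) and Diras1 (0.919) among 13231 genes tested in all 3 experiments. All points share the same libraries and their depths. These libraries include the knockout neurites whose rise picked Zfp839, so genes with a like rise rank high. The coefficients are therefore a description. Peli3, a ubiquitin ligase, had LR changes of 3.77 in CAD and 1.54 in N2A cells, and Kcnj12, a potassium channel, of 2.41 and 0.61. Fam219a was at 2.76 and 0.98.

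No gene within 10 kb of Zfp839 was called for LR change in edgeR in any of the 3 experiments. Cinp (chr12:110872610-110889145, minus strand), whose annotated end lies closest downstream, had LR changes of -0.01 (standard error 0.133, edgeR adjusted p = 0.994) in CAD and -0.31 (standard error 0.151, edgeR adjusted p = 0.178) in N2A cells. Mok, upstream on the minus strand, was at -0.47 (standard error 0.266, edgeR adjusted p = 0.591) and -0.32 (standard error 0.518, edgeR adjusted p = 0.707). The pseudogene Mpc1-ps (chr12:110858565-110858894, minus strand), inside an intron of Zfp839, had 0 counts in all 36 libraries. The non-coding genes Gm26912 and 4921507G05Rik had at most 5 and 1 counts in a library.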

How the data were processed

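Per the labels and methods, RNA of soma and neurite fractions was extracted with a Zymo kit and made into libraries with Kapa RNA Hyperprep kits. The authors trimmed reads with cutadapt, quantified them with salmon, and the deposited values give, transcript by transcript, an estimated count and the TPM (tool versions are not given in the sources used here). The methods name mm10 with Gencode version 17. Here, estimated counts and deposited TPM values were summed to genes with GENCODE vM21 (GRCm38), and counts were rounded. Transcripts absent from this annotation held up to 0.129% of the counts of a library. The deposited UMI count tables of the reporter assay were read for oligo names only. The binding and SLAM-seq tables of the reporters and the human samples were not used here.

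edgeR 4.0.16 in R 4.3.3 (TMM, filterByExpr, glmQLFit, glmQLFTest, Benjamini-Hochberg adjustment, FDR 0.01) was fitted per experiment to the 4 groups of 12 libraries, with LR change as the interaction of compartment and condition. CPM used TMM-scaled totals, and log2 CPM added 0.5 counts. The fit was tested on simulated data with known changes, and some of these were missed in each experiment. Motifs were counted on the transcript strand in the longest annotated 3′ UTR of a gene. 19 coding transcripts without a reference sequence were left out. Replicates are separate samples in the labels, with nothing said of separate cultures beyond the number, so p-values may measure technical spread. No 2 libraries of a group held the same counts, and their log2 CPM correlated at 0.969 to 0.99.

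Zfp839 and the gene lists were chosen with earlier results of these data known. Named genes are Zfp839 and its transcripts, Tardbp, genes overlapping or within 10 kb of it, the 5 genes most like it, a list of 8 genes higher in both knockouts, and called Zfp genes. No Zfp gene was called, and Zfp706, Zfp853, Zfp473, and the genes named for long GU runs or dense motifs, were chosen after their values were seen. Alternatives were DESeq2 1.42.0, length-scaled counts, upper-quartile scaling, dropping the filter, requiring 10 counts in each library, an FDR of 0.05, blocks for the replicate number or for condition and number together, leaving out each number, CPM for TPM, transcript shares in TPM, other ways of counting motifs and other measures of likeness. Library totals without TMM, and LRs from TPM, were chosen after seeing the data. Tables were made in python 3.11.15 with pandas 2.3.3, numpy 2.4.6 and scipy 1.17.1.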

Additional observations from a re-analysis of the deposited data

How the results depend on the processing

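In the knockout experiments the LR change and the neurite change of Zfp839 kept their direction under every alternative run, at 5.12 to 5.71 and 5.52 to 5.81 in CAD cells and 2.66 to 3.06 and 2.86 to 3.13 in N2A cells. The ends of these ranges that lay beyond the spread of replicates came from TPM in place of scaled counts, with LR changes of 5.71 (CAD) and 3.06 (N2A) and a CAD neurite change of 5.81. TPM also gave a CAD soma change of 0.10 and LRs of -1.48 (wild-type transgene) and -1.18 (Q331K). Leaving out each replicate number gave Q331K LR changes of -0.00019 to 1.27, neurite changes of -0.04 to 0.69, soma changes of -0.57 to 0.09 and Q331K LRs of -0.28 to 0.31, so these signs are not determined at 18 to 60 counts per library. The wild-type transgene LR ran from -0.95 to -0.24. No adjusted p passed 0.01. The motif density rests on the annotated 3′ UTR, of which 143.8 bases per kb lie in motifs. Of the 5 genes most like Zfp839, 4 stayed with Spearman's rho and 4 with the 24 knockout-experiment libraries. Those 24 libraries hold the rise that picked Zfp839, so they are no independent check.

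Same-numbered libraries of different groups had deviations that correlated above 0.1 in 6 of 18 pairs of libraries in CAD and 4 of 18 in N2A. In the transgene experiment 5 of 18 did. Since not every pair exceeded 0.1, the numbers were not taken as pairs. In the other direction, 9, 9 and 7 of 12 libraries correlated best with their own number, a hint from the data and not from the design. With the replicate block the LR change of Zfp839 was 5.23 in CAD, 2.77 in N2A and 0.46 in the Q331K comparison. With a block for condition and number together it was 5.22, 2.76 and 0.46. These blocks changed no call of Zfp839 in the Q331K comparison. The replicate block gave 37 higher and 5 lower genes in N2A cells, against 16 and 2.

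Counts of genes called for LR change depended on the settings more than Zfp839 did. Against 39 higher and 36 lower in CAD cells, an FDR of 0.05 gave 70 and 100, DESeq2 79 and 145 and no filter 117 and 163, while length-scaled counts gave 22 lower, and leaving out a number gave 16 to 43 higher and 2 to 60 lower. Against 16 and 2 in N2A cells, an FDR of 0.05 gave 560 and 955, DESeq2 365 and 1288, upper-quartile scaling 136 and 9, no filter 474 and 449, at least 10 counts in every library 114 and 18, length-scaled counts 10 and 4, library totals 16 and 4, and leaving out a number 3 to 7 higher and 0 lower. Against 0 and 0 for Q331K, no filter gave 31 and 22, and leaving out a number 0 to 1 each. The cause of these differences was not tested.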
